A study of Homo sapiens with 6 samples.

Results

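The calcitonin receptor family and the adrenomedullins were followed as 8 genes: the receptors CALCR and CALCRL, the receptor activity-modifying proteins RAMP1, RAMP2 and RAMP3, the peptide hormones ADM and ADM2, and CRCP. The genes were chosen by symbol, with the shKDM2B to empty vector difference of CALCR and ADM2 already in view. All 8 had a row among the 61533 genes of the count table. RNA came from MDA-MB-231, a cultured human breast cancer line of the triple-negative class, carrying either an empty vector (genotype WT, 3 libraries) or shKDM2B, a hairpin that knocks down KDM2B (3 libraries). Both groups were grown in the same medium and collected before confluence. The control carries a vector without a hairpin, so a response to any hairpin and a response to the loss of KDM2B cannot be told apart from these libraries. Whether the knockdown cells were a pool or 1 clone is not stated in the labels.

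CALCR and CALCRL are class B1 G protein-coupled receptors that signal mainly through Gs and cyclic AMP. RAMP1, RAMP2 and RAMP3 are single-pass membrane proteins that pair with these receptors and set which peptide is bound: CALCRL needs a RAMP to reach the cell surface, and becomes a CGRP receptor with RAMP1 and an adrenomedullin receptor with RAMP2 or RAMP3, while CALCR binds calcitonin alone and amylin when paired with a RAMP. In the body CALCR is best known from osteoclasts and the brain, and the CALCRL and RAMP2 pair from vascular endothelium. KDM2B, the targeted gene, binds unmethylated CpG-rich DNA through a CXXC zinc finger.

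Each library held between 10190149 and 15737951 counts. Levels are in CPM, the count scaled to the library's total with edgeR's TMM factors. Where a library has 0 counts, up to 3 are allowed by counting error, which is 0.195 to 0.291 CPM depending on the library; other errors are not part of this floor. KDM2B fell from 63.3 ± 5.56 CPM in empty vector to 14.6 ± 0.182 CPM in shKDM2B cells (SD, n = 3 each), a log2 fold change of -2.12 (SE 0.08). The labels do not say that the replicates were separate cultures, so p-values measure the spread between these libraries only. The cell line markers VIM, CD44, EGFR and CAV1 were abundant in both groups, but not at equal levels. VIM fell 3.20-fold from 1295 ± 52.3 to 404.6 ± 10.3 CPM (adjusted p = 1.43e-12) and CAV1 fell 1.27-fold, while EGFR rose 1.14-fold. CD44 had a log2 fold change of 0.20, which did not pass the threshold without shKDM2B replicate 1 or 3 (0.20 and 0.19). The hormone receptor genes ESR1 and PGR had at most 4 and 3 counts in any library. ERBB2, checked with these markers and named after its values were seen, was well detected, with 561 to 1001 counts a library. Its mean was 63.5 ± 8.31 CPM for the control libraries, against 62.3 ± 3.79 CPM after the knockdown (log2 fold change -0.03, SE 0.08).

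CALCR, the calcitonin receptor, was close to the detection floor in empty vector cells and was well detected after the knockdown. It had 7, 2 and 7 counts in empty vector replicates 1, 2 and 3, against 109, 145 and 161 in the shKDM2B replicates. As scaled levels these were 0.679, 0.190 and 0.505 CPM against 10.6, 12.7 and 10.5 CPM. The groups were far apart, and the empty vector libraries lay at or near the level that a count of 0 allows. The log2 fold change was 4.57 (SE 0.25, n = 3 each), and 5 of the 14071 tested genes had a larger one in either direction. Because 16 counts stand behind the empty vector group and 415 behind the knockdown group, the ratio of pooled counts was 24.2, with an exact 95% interval of 14.7 to 42.7 that covers counting error only. CALCR passed the low-count filter through the knockdown libraries alone, with 0 of 3 empty vector libraries above it, so that only a large difference could bring it into the test. In RNA from whole cultures, more cells with CALCR mRNA and more CALCR mRNA per cell cannot be told apart.

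**Figure D1:**
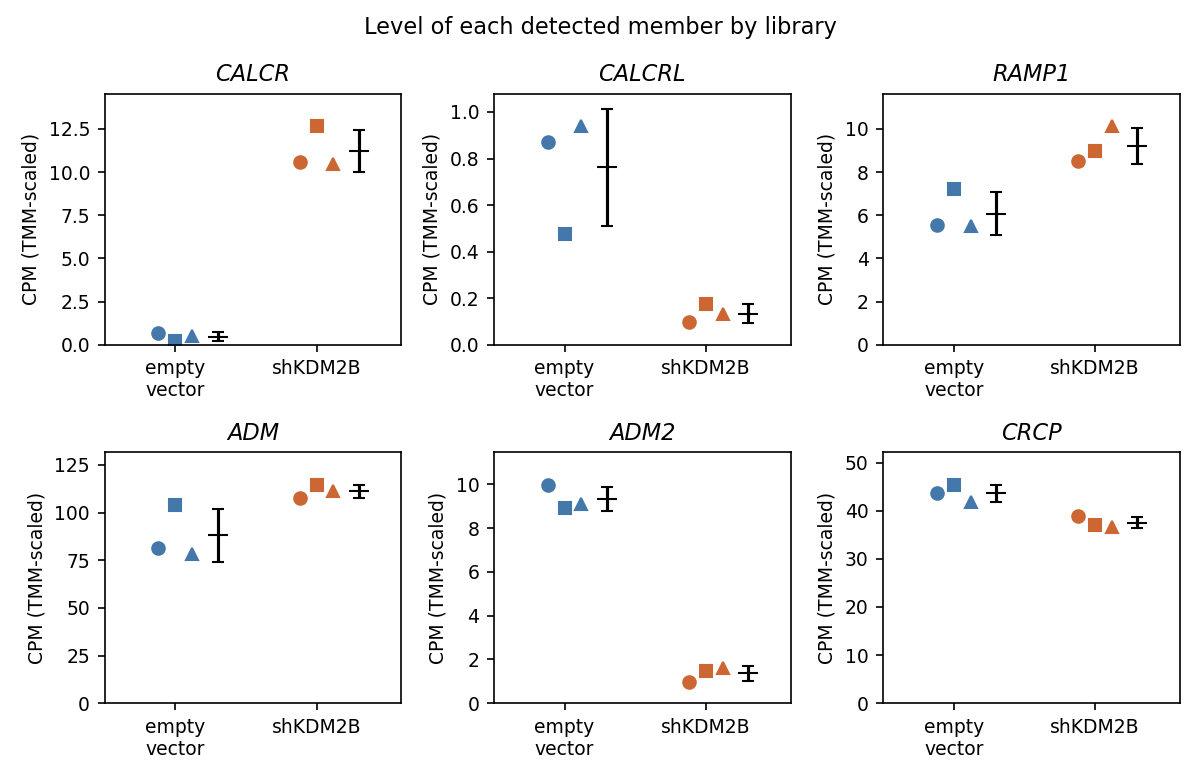
Level of the 6 detected members in each library, in CPM scaled by TMM on axes that start at 0; circles, squares and triangles are replicates 1, 2 and 3, and the black bar is the mean ± SD of the group. CALCR lies at 0.190 to 0.679 CPM in empty vector and 10.5 to 12.7 CPM in shKDM2B, and ADM2 does the reverse, at 8.92 to 9.99 against 0.969 to 1.62 CPM.

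In GRCh38, CALCR (ENSG00000004948.16) spans 93424487 to 93574730 of chromosome 7, on the minus strand. RefSeq (GRCh38.p14) gives it more than 1 start, and the counts, which are summed over the gene, do not say which was used. The windows around a pair of these starts, each from 250 bases before the start to 50 after it, are shown because they differ sharply in CpG content. Every CpG is in capitals, and the minus strand is read 5′ to 3′.
CALCR, chr7:93574675-93574974: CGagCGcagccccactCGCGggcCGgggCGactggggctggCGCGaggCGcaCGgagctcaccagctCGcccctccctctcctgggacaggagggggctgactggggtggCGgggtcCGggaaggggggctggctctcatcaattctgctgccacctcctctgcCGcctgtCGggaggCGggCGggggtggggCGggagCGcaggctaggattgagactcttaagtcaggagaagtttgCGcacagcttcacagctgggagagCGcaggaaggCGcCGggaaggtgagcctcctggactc
CALCR, chr7:93559761-93560060: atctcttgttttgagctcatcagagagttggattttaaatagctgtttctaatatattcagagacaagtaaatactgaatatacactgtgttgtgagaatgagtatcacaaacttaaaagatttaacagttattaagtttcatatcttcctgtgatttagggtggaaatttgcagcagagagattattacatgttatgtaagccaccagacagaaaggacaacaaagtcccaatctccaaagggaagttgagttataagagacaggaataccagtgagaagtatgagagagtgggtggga
The upstream window held 23 CpG and 70.3% G and C, and 35.8% of all 35116 RefSeq windows of this length held at least as many CpG. The inner window held 0 CpG and 35.7% G and C. The median over all windows was 14 CpG.

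CALCRL, the receptor for CGRP and adrenomedullin, was barely detected in either group. It had 9, 5 and 13 counts in the empty vector libraries and 1, 2 and 2 in the shKDM2B libraries, or 0.873, 0.475 and 0.939 CPM against 0.0969, 0.175 and 0.130 CPM. All knockdown libraries were below all empty vector libraries, with every knockdown value under the floor of 3 counts. The pooled ratio of empty vector to shKDM2B was 5.79, with an exact 95% interval of 2.20 to 19.2 for counting error. CALCRL did not pass the low-count filter and was not tested with the other genes. Fitted without a filter, it had a log2 fold change of -2.46 (SE 0.66). CALCRL (ENSG00000064989.13, chromosome 2 from 187343129 to 187448460, minus strand) lies within the span of its antisense gene CALCRL-AS1, and no source states whether the counting used strand, so reads of the pair cannot be told apart. CALCRL-AS1 had 105, 88 and 88 counts in empty vector and 57, 72 and 100 in shKDM2B cells, with overlapping groups and a log2 fold change of -0.41 (SE 0.17, adjusted p = 0.0501). That value passed the threshold in 4 of the alternative fits, at -0.40 to -0.60.

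Scaled to the length of annotated exons, CALCR made up 53.1%, 36.8% and 43.9% of the summed CALCR and CALCRL level in the empty vector libraries. In the shKDM2B libraries it made up 99.4%, 99.1% and 99.2%. The shares in control cells rest on 2 to 13 counts per gene, and those in knockdown cells on 1 or 2 counts of CALCRL. These shares restate the CALCR and CALCRL levels given above.

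Of the RAMP genes, RAMP1 was expressed, and RAMP2 and RAMP3 had 0 counts in all 6 libraries. RAMP1 (ENSG00000132329.11, chromosome 2 from 237858893 to 237912114, plus strand) had 57, 76 and 76 counts in empty vector against 88, 103 and 156 in shKDM2B cells. These were 5.53, 7.22 and 5.49 CPM against 8.53, 8.99 and 10.1 CPM. The groups did not overlap, although empty vector replicate 2 lay closer to the knockdown libraries than its group did. The log2 fold change was 0.62 (SE 0.15), a 1.54-fold difference. RAMP2, the partner that makes CALCRL an adrenomedullin receptor in endothelium, lies on chromosome 17 from 42758447 to 42763041, and RAMP3 on chromosome 7 from 45157791 to 45186302. For both, a level under the floor of 0.195 to 0.291 CPM was not detectable at this depth. The nearest coding neighbours of RAMP2, EZH1 and VPS25, were expressed at 21.2 ± 1.19 and 53.7 ± 7.17 CPM in empty vector cells.

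The ratio of RAMP1 to CALCR was lower in shKDM2B cells, and that to CALCRL was higher. RAMP1 itself differed 1.54-fold, so these ratios mostly restate the CALCR and CALCRL differences given above, and nothing further is read from them. Per kilobase of exon, RAMP1 was 27.9, 130.2 and 37.2 times the level of CALCR in the empty vector libraries, and 2.77, 2.43 and 3.32 times in the shKDM2B libraries. Relative to CALCRL it was 31.5, 75.7 and 29.1 times as high in empty vector and 438.1, 256.4 and 388.4 times as high in shKDM2B cells. The empty vector ratios to CALCR, and all ratios to CALCRL, rest on 1 to 13 receptor counts a library.

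Among the peptides, ADM was abundant and slightly higher after the knockdown, while ADM2 fell. ADM, adrenomedullin, a vasodilator peptide induced by hypoxia, had 842, 1097 and 1086 counts in empty vector and 1110, 1313 and 1716 in shKDM2B cells. Its levels were 81.6, 104.2 and 78.4 CPM against 107.6, 114.6 and 111.4 CPM. The groups did not overlap, but empty vector replicate 2 came close to the lowest knockdown library, and the mean went from 88.1 ± 14.0 to 111.2 ± 3.52 CPM (SD, n = 3 each). The log2 fold change of ADM was 0.34 (SE 0.09), below the median size of 0.36 over all tested genes.

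ADM2, also called intermedin, signals through the same CALCRL and RAMP receptors. It had 103, 94 and 126 counts in the empty vector libraries and 10, 17 and 25 in the shKDM2B libraries. As levels these were 9.99, 8.92 and 9.10 CPM against 0.969, 1.48 and 1.62 CPM, so the groups were widely separated. The log2 fold change was -2.73 (SE 0.19), a 6.64-fold lower level, which ranked 19 from the lowest among the tested genes. ADM2 made up 7.21%, 5.17% and 6.87% of the length-scaled sum of ADM and ADM2 in empty vector and 0.569%, 0.816% and 0.918% in shKDM2B cells.

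ADM2 (ENSG00000128165.9) lies on the plus strand of chromosome 22 from 50481556 to 50486440, and ADM (ENSG00000148926.10) on the plus strand of chromosome 11 from 10304680 to 10307397. Their RefSeq start windows are shown as those of the peptide gene that fell and the one that did not, again with every CpG in capitals.
ADM2, chr22:50481293-50481592: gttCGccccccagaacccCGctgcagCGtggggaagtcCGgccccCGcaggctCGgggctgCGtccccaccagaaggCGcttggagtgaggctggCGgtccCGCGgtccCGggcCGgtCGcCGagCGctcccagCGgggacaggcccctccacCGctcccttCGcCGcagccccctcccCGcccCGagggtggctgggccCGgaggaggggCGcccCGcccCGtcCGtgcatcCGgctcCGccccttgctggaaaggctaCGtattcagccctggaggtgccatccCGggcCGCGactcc
ADM, chr11:10304823-10305122: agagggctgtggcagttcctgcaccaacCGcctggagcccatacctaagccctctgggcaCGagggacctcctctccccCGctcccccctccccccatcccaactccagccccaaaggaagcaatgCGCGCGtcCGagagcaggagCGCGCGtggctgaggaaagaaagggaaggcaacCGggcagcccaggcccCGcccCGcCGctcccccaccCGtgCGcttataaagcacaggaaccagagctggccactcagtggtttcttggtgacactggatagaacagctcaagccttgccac
The ADM2 window held 33 CpG, a number reached by 17.2% of all windows, against 16 in the ADM window, reached by 47.5%. Motifs were counted on both strands: the hypoxia response cores ACGTG and GCGTG, the short cyclic AMP response site TGACG, and TGATGNAA, the core of the element bound by ATF4 with C/EBP factors. ADM and ADM2 each held 1 GCGTG (36.5% of all windows hold 1 or more) and no ACGTG (21.4%), TGACG (24.6%) or TGATGNAA (3.62%). The upstream CALCR window and the inner one held none of the 4. RAMP3 held 2 GCGTG and CALCRL 1 TGATGNAA, and of the 8 genes 5 had a window in the RefSeq table used.

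CRCP was named for its link to the CGRP receptor, at which it was described as a signalling component, and is also a subunit of RNA polymerase III. It had 450, 478 and 578 counts in empty vector against 401, 425 and 564 in shKDM2B cells, or 43.6, 45.4 and 41.7 CPM against 38.9, 37.1 and 36.6 CPM. The groups did not overlap, and the gap was small beside that of CALCR or ADM2. Its log2 fold change was -0.22 (SE 0.07), a 1.16-fold difference, and without shKDM2B replicate 3 it no longer passed the threshold (-0.20, SE 0.08). CRCP (ENSG00000241258.7, chromosome 7 from 66114604 to 66154568, plus strand) overlaps the antisense gene ENSG00000234185, which had 2 to 8 counts a library.

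In all, 5 of the 8 genes were tested: CALCR, RAMP1 and ADM were called higher and ADM2 and CRCP lower at an adjusted p under 0.05. Among all tested genes 60.9% were called, 30.5% higher and 30.4% lower. All 5 tested members had groups that did not overlap, as did 65.5% of all tested genes. Since the genes were picked with this comparison in view, nothing is read from these counts, and no p-value is given for them.

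**Figure D2:**
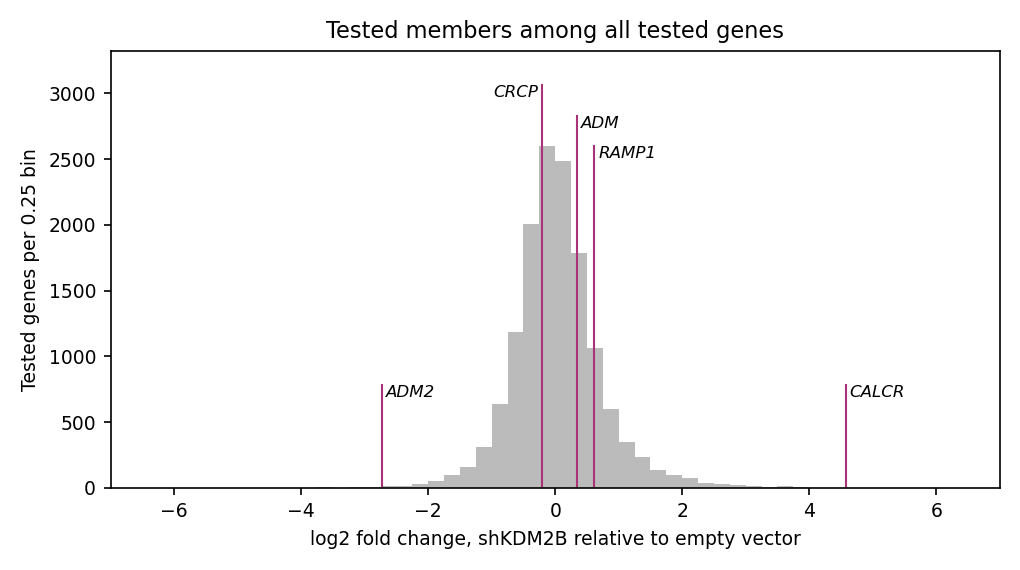
Histogram of log2 fold changes (shKDM2B relative to empty vector) over the 14071 tested genes in bins of 0.25, with the 5 tested members as vertical lines. CRCP (-0.22), ADM (0.34) and RAMP1 (0.62) lie in the body of the distribution, and ADM2 (-2.73) and CALCR (4.57) in its tails.

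Per kilobase of annotated exon, the order of levels in empty vector cells was ADM at 32.4 ± 5.16, CRCP at 12.3 ± 0.516, RAMP1 at 4.92 ± 0.800, ADM2 at 2.18 ± 0.133, CALCRL at 0.124 ± 0.0408 and CALCR at 0.108 ± 0.0586 CPM per kb (SD, n = 3). The libraries of CALCRL and CALCR overlapped, and no other neighbours in this order did. In shKDM2B cells the order was ADM at 40.9 ± 1.30, CRCP at 10.6 ± 0.334, RAMP1 at 7.47 ± 0.667, CALCR at 2.66 ± 0.294, ADM2 at 0.318 ± 0.0805 and CALCRL at 0.0218 ± 0.00634 CPM per kb. No neighbours overlapped there. CALCR thus had the lowest mean of the detected members in control cells, without being separated from CALCRL, and lay above ADM2 and CALCRL in knockdown cells.

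**Figure D3:**
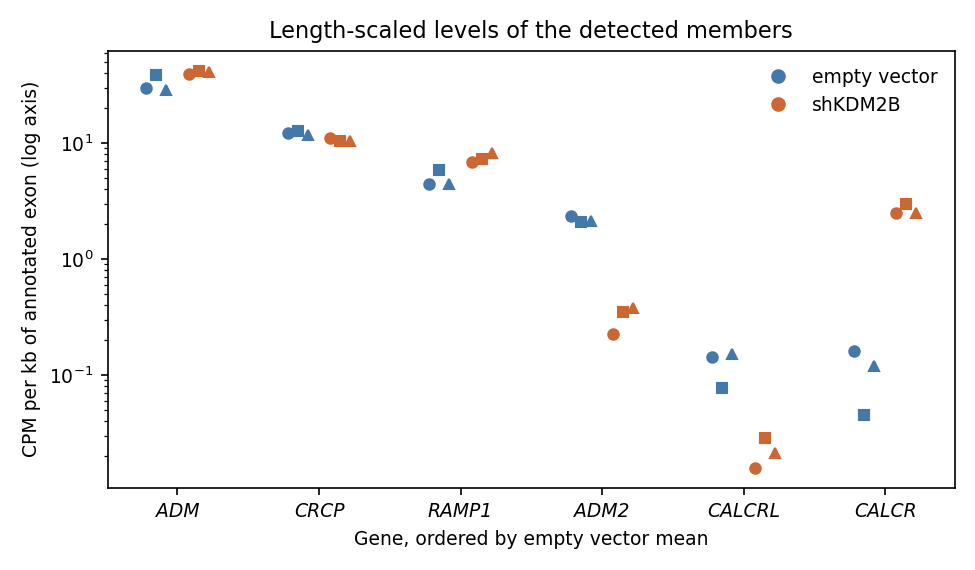
Length-scaled level of each detected member by library, in CPM per kb of annotated exon on a log axis, with genes ordered by their empty vector mean; symbols are replicates 1 (circle), 2 (square) and 3 (triangle). CALCR has the lowest mean in empty vector, at 0.108 ± 0.0586, where its libraries overlap those of CALCRL. In shKDM2B it lies between RAMP1 and ADM2, at 2.66 ± 0.294 CPM per kb.

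The genes whose profile over the 6 libraries was most like that of CALCR or ADM2 were sought by the root-mean-square difference in log2 CPM, centred on the empty vector mean, among 12641 tested genes. For CALCR these were the orphan receptor GPRC5C (0.44), PMEPA1 (0.51) and the transcription factor ARID3A (0.58). GPRC5C went from 0.513 ± 0.246 to 14.4 ± 0.835 CPM, as near to the floor in empty vector as CALCR. For ADM2 they were NKIRAS2 (0.14), GATAD2A, a NuRD complex subunit (0.23), and the mitochondrial glutamate carrier SLC25A22 (0.24). NKIRAS2 went from 43.1 ± 2.59 to 6.83 ± 0.601 CPM. With 2 groups, this likeness is mostly a likeness in the size of the group difference.

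The hexamer CGACAC was counted in the annotated 3' UTR of the longest coding transcript of each gene. The word was chosen with earlier results of these data known, and whether genes that hold it differ from other genes was not tested here. None of the 8 genes held it, ADM2 included (3537 bases of 3' UTR). NKIRAS2, GATAD2A and SLC25A22 held 2, 1 and 1, KDM2B held 2, and 5.48% of the 11929 tested genes with an annotated 3' UTR held at least 1. GPRC5C, PMEPA1 and ARID3A held 0. NKIRAS2, GATAD2A and SLC25A22 were picked in these same data by their likeness to ADM2, so nothing is read from their hexamer counts beside the 5.48%. The part of the hexamer in the likeness to ADM2 was not tested.

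The other ligands of the family were absent or scarce. CALCA, which encodes calcitonin and alpha-CGRP, had 1 count in all libraries together, CALCB, the beta-CGRP gene, had 1, and IAPP, the amylin gene, had 3. ADM5, a putative adrenomedullin gene that passed the filter, fell from 1.48 ± 0.352 to 0.533 ± 0.337 CPM (adjusted p = 0.0111), with 19, 12 and 20 counts against 6, 2 and 13, and it was chosen after its values were seen. ADM and, in control cells, ADM2 were therefore the family's main peptide transcripts.

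Most tested genes for the maturation or clearance of such peptides were higher. Of 15 listed genes 10 were tested, 8 of them higher and 1 lower, and 1 did not pass the threshold. Their median log2 fold change was 0.34, beside -0.01 over all tested genes, of which 30.5% were called higher. FURIN, a proprotein convertase, rose 3.11-fold from 85.0 ± 2.10 to 263.9 ± 7.80 CPM (adjusted p = 8.83e-12). CPE, a carboxypeptidase that trims cleaved prohormones, rose 2.52-fold to 40.1 ± 0.525 CPM, and PCSK5, another convertase, from 7.04 ± 0.403 to 12.6 ± 0.796 CPM. PCSK7, a further convertase, fell by 0.47 on the log2 scale. PAM, which adds the C-terminal amide that the family's peptides need for activity, was chosen after its values were seen and rose 1.35-fold from 153.2 ± 0.623 to 207.0 ± 6.84 CPM (adjusted p = 2.72e-06). ACKR3, an atypical receptor that takes up adrenomedullin, had at most 1 count in any library, and MME, neprilysin, had 0 in all of them.

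The other class B1 receptors were largely silent. Of 13 genes 2 were tested, and both were higher. VIPR1, a receptor for vasoactive intestinal peptide, rose 3.05-fold to 33.7 ± 1.42 CPM (adjusted p = 6.49e-09). GLP2R, chosen after its values were seen, had 3, 3 and 14 counts against 19, 8 and 22, so its groups overlapped, and its log2 fold change of 1.19 had an adjusted p of 0.0470. It did not pass with DESeq2 (1.26), nor without empty vector replicate 1 (0.91) or 2 (0.90) or shKDM2B replicate 1 (0.94) or 3 (1.11), and it was 2.15 without empty vector replicate 3. The parathyroid hormone receptor PTH1R and the secretin receptor SCTR, also chosen after their values were seen, had at most 9 and 2 counts in any library.

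Genes of the signalling chain behind these receptors were called in both directions. Among all tested genes, 30.5% were called higher and 30.4% lower, so nothing is read from this split. Of 40 listed genes of Gs, Gq, cyclic AMP and protein kinase A signalling, 30 were tested, with 11 higher, 8 lower and 11 not past the threshold (median log2 fold change 0.11). ADCY6, an adenylyl cyclase, rose from 19.8 ± 2.31 to 40.3 ± 2.26 CPM. The other tested adenylyl cyclase genes, named after their values were seen, did not rise. ADCY3, the most abundant, fell 1.29-fold from 91.9 ± 0.764 to 71.4 ± 0.0949 CPM, ADCY7 fell 1.67-fold, and ADCY9 did not pass the threshold. PRKAR1A, a regulatory subunit of protein kinase A, rose from 326.6 ± 27.2 to 549.8 ± 5.06 CPM. PDE7A, which degrades cyclic AMP, rose 1.71-fold. Of the other phosphodiesterase genes tested, named after their values were seen, PDE4B fell 2.83-fold from 5.55 ± 0.610 to 1.97 ± 0.0600 CPM. PDE3A, PDE4A and PDE7B were called higher, and PDE3B and PDE4D did not pass the threshold. On the Gq side, the alpha subunit GNAQ fell 2.24-fold from 107.6 ± 10.4 to 48.1 ± 1.56 CPM (adjusted p = 5.29e-09), and the phospholipase PLCB3 fell 1.90-fold. GNAS, the Gs alpha subunit, chosen after its values were seen, rose 1.19-fold (adjusted p = 0.000264).

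Of 14 desensitisation and trafficking genes, all tested, 6 were higher and 2 lower (median 0.16), beside 30.5% and 30.4% of all tested genes. The receptor kinase GRK5 rose by a log2 fold change of 0.55, the kinase GRK6 and the arrestin ARRB2 fell by 0.47 and 0.68 on the log2 scale, and the endosomal GTPases RAB7A and RAB5A rose by 0.56 and 0.46. Among 21 genes known to be induced by cyclic AMP, 18 were tested, with 7 higher, 3 lower and 8 not past the threshold (median 0.21). The same shares of all tested genes stand beside these counts. JUNB rose 2.38-fold and ID3 and ID1 rose 1.56-fold and 1.54-fold, while DUSP1 fell 2.05-fold and CITED2 fell 1.57-fold.

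For CRCP the comparison set was RNA polymerase III, whose 17 other listed subunits were all tested: 9 were lower, 7 did not pass the threshold and 1 was higher (median -0.26). The higher one, POLR3B, named after its value was seen, had a log2 fold change of 0.17 and did not pass with DESeq2 (0.17), with no low-count filter (0.14), or without empty vector replicate 1 (0.17) or 3 (0.12) or shKDM2B replicate 1 (0.15) or 3 (0.17). POLR2F, a subunit shared by the 3 nuclear polymerases, POLR3E, POLR3D and POLR3G fell 2.27-fold, 2.21-fold, 2.00-fold and 1.62-fold, with POLR3E going from 41.9 ± 1.55 to 19.0 ± 0.330 CPM (adjusted p = 1.21e-08). CRCP, at -0.22, lay close to the median of this list.

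ADM is a known hypoxia target and ADM2 a known target of ATF4. Among 24 hypoxia-induced genes, 23 were tested, with 11 higher, 5 lower and 7 not past the threshold (median 0.26). ANGPTL4 rose 10.2-fold, SLC2A3 3.52-fold, BHLHE40 2.89-fold and EGLN3 2.79-fold, whereas PDK1 fell 2.13-fold. The other lower genes, named after their values were seen, were VEGFA (1.80-fold), HK2 (1.66-fold), BNIP3 (1.33-fold) and MXI1 (1.30-fold). SLC2A1, P4HA1 and PFKFB3 were among the hypoxia-induced genes that did not pass. Among 20 ATF4-induced genes, 18 were tested, of which 11 were lower and 4 higher, while 3 did not pass (median -1.05). ATF4 itself fell 3.41-fold from 458.8 ± 46.2 to 134.4 ± 2.39 CPM (adjusted p = 4.55e-11). CHAC1 fell 7.48-fold, PCK2 2.97-fold, PSAT1 2.79-fold, JDP2 2.60-fold and CEBPG 2.55-fold. ADM2, at 6.64-fold lower, lay between CHAC1 and PCK2. Named after their values were seen, ASNS and NUPR1, with means under 5 CPM, fell further, 7.54-fold and 18.1-fold. The 4 higher genes were PPP1R15A (1.78-fold), CEBPB (1.72-fold), VLDLR and SLC7A11, and DDIT3, ATF3 and STC2 did not pass. This list was chosen with the decrease of several of its genes known, so its direction is not independent evidence. The part of ATF4 in the ADM2 difference, and of hypoxia signalling in that of ADM, was not tested.

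**Figure D4:**
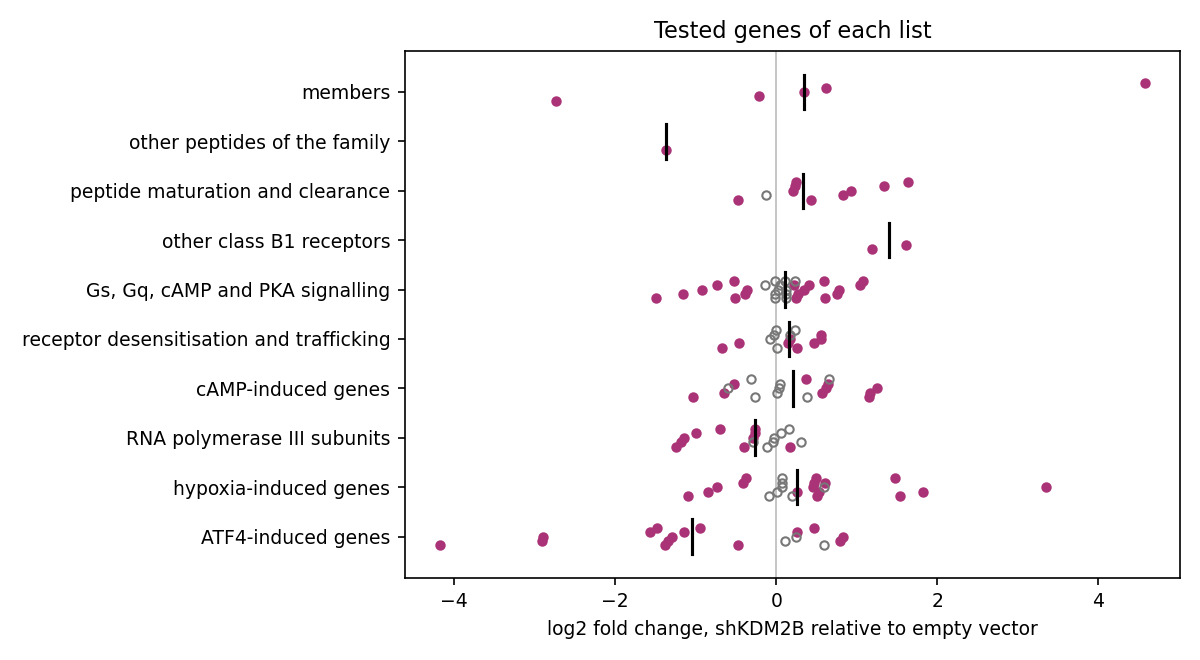
log2 fold change (shKDM2B relative to empty vector) of each tested gene by list; filled points passed an adjusted p under 0.05, open points did not, and black bars are list medians. Points of most lists lie on both sides of 0, and the ATF4-induced genes have the lowest median among lists with more than 1 tested gene, at -1.05.

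Over all these lists together, 130 of 165 genes other than the 8 were tested, and 50 were higher and 39 lower. That is 68.5% called, beside 60.9% of all tested genes, with 30.5% higher and 30.4% lower. No list was tested as a set.

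The genes next to the members did not all move with them. The nearest coding neighbours of CALCR were VPS50, whose log2 fold change was 0.35 (SE 0.08, adjusted p = 0.00114), and GNGT1, with 1 count in all libraries together. The miRNA genes MIR489 and MIR653, which lie within CALCR, had 0 counts. ADM2 lies 344 bases from MIOX, with at most 1 count in any library, and 6532 bases from SBF1, whose log2 fold change of 0.14 had an adjusted p of 0.0661 and passed without empty vector replicate 2 (0.20). AMPD3, which starts 916 bases beyond ADM on the same strand, rose 2.74-fold from 8.78 ± 0.554 to 24.0 ± 1.45 CPM (adjusted p = 2.19e-08), and SBF2 on the other side rose 1.54-fold. TFPI, next to CALCRL, rose 1.53-fold, against the lower counts of CALCRL. Of the 16 coding neighbours of the 8 genes, 11 were tested, with 6 higher, 2 lower and 3 not past the threshold. Among all tested genes 60.9% were called, 30.5% higher and 30.4% lower, so nothing is read from the neighbour counts.

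Markers of cells in which the family is best known were checked, and those named here were chosen after their values were seen. Of 10 osteoclast markers, 6 were tested, with 4 higher and 0 lower, beside 30.5% and 30.4% of all tested genes. The summed level of all 10 was 31.9 to 37.7 CPM over the empty vector libraries and 65.5 to 71.0 CPM over the shKDM2B libraries. The members that rose were ITGB3 (log2 fold change 2.74), NFATC1 (1.88), MMP9 (3.03) and TNFRSF11A (0.37). CTSK and OSCAR did not pass the threshold (log2 fold changes -0.11 and 0.37). The defining fusion genes DCSTAMP and OCSTAMP had 0 counts in all 6 libraries. ACP5, not tested, had 0, 1 and 0 counts in empty vector against 5, 6 and 6 in shKDM2B libraries. Of 12 endothelial markers, 5 were tested, with 2 higher, 1 lower and 2 not past the threshold. The summed level of all 12 was 138.5 to 154.3 CPM in empty vector and 256.8 to 265.9 CPM in shKDM2B libraries. CDH5 and ERG had at most 2 and 1 counts. ESAM rose 2.98-fold from 51.9 ± 4.47 to 154.7 ± 5.16 CPM, which was most of the rise in the endothelial sum, and KDR rose 2.96-fold. TIE1 fell 2.12-fold (adjusted p = 0.00297), and ROBO4 and EGFL7 had log2 fold changes of -0.08 and -0.16. Of 13 leukocyte markers, 2 were tested: LCP1 fell 3.03-fold and CSF1R rose 2.87-fold (adjusted p = 0.000164). The list's summed level, mostly LCP1, was 20.4 to 28.8 CPM in empty vector and 10.2 to 12.5 CPM in shKDM2B libraries. PTPRC had at most 4 counts, CD14 had 1 to 3 counts in empty vector and 8 to 12 in shKDM2B libraries, and CD3E, CD3D, MS4A1, LYZ and TYROBP had 0. Of 11 fibroblast markers, 3 were tested and all were higher: COL1A1 rose 11.5-fold, PDGFRB 4.62-fold and FBLN1 1.93-fold. Their list summed to 11.1 to 15.2 CPM in empty vector and 78.3 to 86.5 CPM in shKDM2B libraries. COL1A1 alone, at 5.77 ± 1.75 and 66.1 ± 3.69 CPM, made up most of that rise. COL1A2, COL3A1 and DCN had at most 2, 3 and 4 counts in any library. The part of these marker genes in the CALCR difference was not tested.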

How the data were processed

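Ribosome-depleted total RNA of 6 MDA-MB-231 samples was sequenced. The deposited table holds raw counts per gene; GRCh38 and the tools featureCounts, STAR, Trim Galore, limma, edgeR and DESeq2 appear in the submitters' processing notes without versions or roles, and neither annotation release nor strand setting is stated. The knockdown columns carry a short code after "sh" and were taken as shKDM2B, the 1 hairpin group in the labels.

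Genes were kept by filterByExpr (minimum count 10, minimum total 15) and fitted with edgeR 4.0.16 (R 4.3.3; TMM, robust quasi-likelihood F-test, prior count 0.125), with Benjamini-Hochberg adjustment over all 14071 tested genes at 0.05. The SE is the log2 fold change divided by the square root of F. The fit was tested on simulated data for this comparison: 200 of the 14071 genes were changed, and 13830 genes passed the filter again. Of those changed 1.5-fold 82% were recovered, and of those changed 4-fold 94%, with 4.23% of calls false. Far fewer genes were changed there than the 60.9% called in the real data, so these rates may not hold for the real comparison. CPM per kb uses the exon union of GENCODE 29, and intervals are exact binomial at 95%. Replicates of a group differed by more than counting noise, with chi-square 1.89 to 8.74 for each degree of freedom.

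The members and lists were chosen with earlier results of these data known. The text names, from each pathway list, up to 5 called genes with a mean of at least 5 CPM by size of change; the 3 genes most like CALCR and ADM2 (prior count 2 in log2 CPM); and the nearest coding and overlapping genes. Some genes this rule names are not reported here. Alternatives were other scalings, filters and prior counts, DESeq2 1.42.0, limma-voom 3.58.1, a replicate block and leaving out each library.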

Additional observations from a re-analysis of the deposited data

How the results depend on the processing

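Over the alternatives no log2 fold change of a tested member changed sign. Leaving out each library in turn, CALCR ranged from 4.24 to 4.88, ADM2 from -2.90 to -2.57, RAMP1 from 0.53 to 0.75, ADM from 0.25 to 0.47 and CRCP from -0.25 to -0.19. Members called lower ranged from 1 to 3 there, with 1 (ADM2) without shKDM2B replicate 3, where CRCP lost its call, and members called higher stayed at 3. CALCRL entered the fit and was called lower without empty vector replicate 2 (-2.68), without shKDM2B replicate 1 (-2.30) and with no low-count filter. Genes called over the whole table numbered 7566 to 9128 without 1 library and 7574 to 8876 under the other alternatives, and those of the pathway lists 81 to 92 and 82 to 91. DESeq2 left 5 adjusted p-values as NA.

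Same-numbered libraries did not deviate together throughout (r = 0.12, -0.03 and 0.08 across genes), so the numbers were not taken as pairs. With the replicate number as a block, 60.3% of tested genes were called, and the log2 fold changes were 4.57 for CALCR, -2.73 for ADM2, 0.62 for RAMP1, 0.35 for ADM and -0.21 for CRCP. Depth limits CALCRL and, in empty vector cells, CALCR, and leaves RAMP2 and RAMP3 undetected.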
